A study of Mus musculus with 6 samples.

Results

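Vsnl1, Slco4c1, Adamts18 and Mmp14 are markers of the ureteric tip, the growing end of each branch of the ureteric bud from which the collecting system forms. They were read on whole mouse kidneys at E13.5 in which Fz4 was intact or deleted and Fz8 was absent throughout. The 4 genes were chosen as named tip markers from earlier results of the same comparison between genotypes, so the differences of the members are given as a description with no test. All 4 were found, among 18193 genes with a probe set of their own. Between them they have 10 probe sets that are annotated to a single gene, and the brightest of them on average over the 6 arrays represents its gene.

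The Fz8-null group (arrays C1, C2 and C3) has the genotype Fz4+/+Fz8-/-, and the double-null group (arrays M1, M2 and M3) has the genotype Fz4-/-Fz8-/-. Every array thus lacks Fz8, and no array is wild type for both receptors. The strains C57BL/6, 129X1/SvJ and 129S1/Sv were mixed in the background of all embryos. The whole organ was extracted, 100 ng of total RNA was labelled per array, and the sources used here do not say whether an array holds 1 embryo or several, so the spread between arrays may be partly technical. The values are log2 intensities from RMA, a method that corrects, normalizes and summarises Affymetrix probes, and a difference of -1 means that the intensity was halved. Fewer tip cells in a kidney and less RNA per tip cell cannot be told apart in such samples.

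The tip is the site where Gdnf, a growth factor from the surrounding mesenchyme, acts on the receptor tyrosine kinase Ret and its coreceptor Gfra1. Downstream of Ret, the ETS transcription factors Etv4 and Etv5 keep tip genes on and so sustain branching. Fz4 and Fz8 are Frizzled receptors, through which Wnt ligands signal. Among the 4 markers, Vsnl1 encodes a calcium sensor of the neuronal calcium sensor family, Slco4c1 an organic anion transporter of the plasma membrane, Adamts18 a secreted metalloproteinase, and Mmp14 a membrane-anchored matrix metalloproteinase that activates the proenzyme of Mmp2.

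The level of Fzd4 matched the labels, and that of Fzd8 was low on every array. The Fzd4 probe set 1434756_at read 10.74, 10.86 and 10.93 in the Fz8-null arrays and 5.29, 4.96 and 3.89 in M1, M2 and M3. The Fzd8 probe set 1423348_at read between 3.57 and 4.42 on the 6 arrays. To place such low values, 71 olfactory and vomeronasal receptor genes of sensory neurons served as a reference for dim probe sets. Their median of gene means was 3.22, with a 95th percentile of 5.59. Within single arrays that percentile was 5.7 (C1), 4.78 (C2), 4.7 (C3), 7.07 (M1), 7.43 (M2) and 4.95 (M3). Where no array is named below, the value of 5.59 is meant. Array medians over all probe sets lay between 6.02 and 6.14.

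Vsnl1, Slco4c1 and Mmp14 were lower in each of the 3 double-null arrays than in any Fz8-null array, at least on their brightest probe set, and Adamts18 was not. The differences, double-null minus Fz8-null, were -1.90 (SE 0.17) for Vsnl1, -1.33 (SE 0.26) for Slco4c1, -0.99 (SE 0.28) for Mmp14 and -0.32 (SE 0.17) for Adamts18, with n = 3 in each group. On the linear scale the double-null means came to 26.8%, 39.8%, 50.5% and 80.0% of the Fz8-null means in that order. Over all 18193 genes the groups did not overlap, with double-null lower, for 2219 or 12.2%, beside which 3 of the 4 members stand. Since the members were picked from this comparison, that count supports nothing. Of the 10 probe sets 5 were apart in this way, beside 11.3% of all probe sets.

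**Figure D1:**
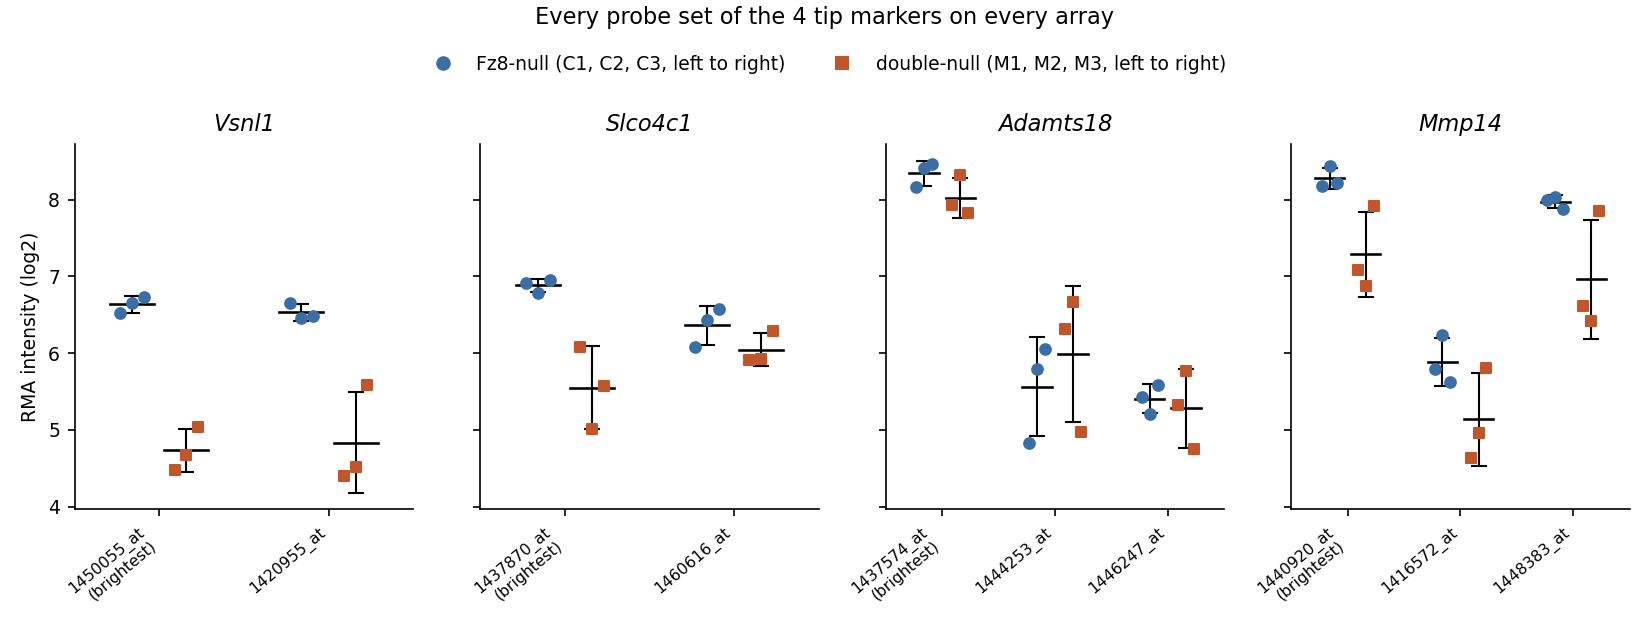
RMA intensity (log2, vertical axis) of every probe set of the 4 markers, with the brightest probe set of each gene first. Points are arrays, horizontal lines are group means and bars are the SD of 3 arrays; the groups are apart on both Vsnl1 probe sets and overlap on all 3 Adamts18 probe sets.

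Vsnl1 lay furthest below the Fz8-null level, and both of its probe sets were apart between the groups. Probe set 1450055_at read 6.52, 6.66 and 6.73 in C1, C2 and C3 and 4.48, 4.68 and 5.04 in M1, M2 and M3. The highest double-null array was thus 1.48 below the lowest Fz8-null array, a gap wider than the range of 0.56 within the double-null group. The other probe set, 1420955_at, read 6.66, 6.46 and 6.48 in the Fz8-null arrays and 4.40, 4.52 and 5.59 in the double-null arrays. On both probe sets M3 kept the most signal, and the second one put M3 only 0.88 below the lowest Fz8-null array. That gap is narrower than the double-null range of 1.18 on this second probe set. As shares of the Fz8-null mean, the brightest probe set of M1 kept 22.5%, that of M2 25.8% and that of M3 33.1%. Its double-null values lie within the upper part of the receptor-gene reference, below its 95th percentile of 5.59. M1 and M2 also lie below the percentile of their own arrays, whereas M3, at 5.04, lies just above its own of 4.95. The size of the difference is thus bounded by the background of the arrays, for M3 only by the reference over all arrays.

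Slco4c1 showed the same order of groups on its brightest probe set and a much smaller difference on the other. Probe set 1437870_at read 6.91, 6.79 and 6.95 in C1, C2 and C3 and 6.08, 5.01 and 5.57 in M1, M2 and M3. The lowest Fz8-null array lay 0.71 above the highest double-null array, a gap narrower than the double-null range of 1.07. Here M2 was lowest and M1 highest, unlike Vsnl1, for which M1 was lowest, and the shares of the Fz8-null mean were 57.3% in M1, 27.3% in M2 and 40.3% in M3. The values in M2 and M3 lie below the 95th percentile of the receptor genes over all arrays. Judged by the percentile of its own array, M1 lies below it (6.08 beside 7.07), as does M2 (5.01 beside 7.43). M3 lies above its own (5.57 beside 4.95). The shares of M1 and M2 too are thus bounded by the background, and that of M3 only by the reference over all arrays. Probe set 1460616_at read 6.08, 6.43 and 6.58 in the Fz8-null arrays and 5.91, 5.93 and 6.29 in the double-null arrays. These groups overlap, because M3 lies above C1, and the difference was -0.32 (SE 0.19). With the mean of both probe sets the Slco4c1 difference came to -0.825.

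Mmp14 was low in M1 and M2 and close to the Fz8-null arrays in M3. Probe set 1440920_at read 8.18, 8.44 and 8.22 in C1, C2 and C3 and 7.08, 6.87 and 7.92 in M1, M2 and M3. M3 kept 78.2% of the Fz8-null mean, while M1 kept 43.6% and M2 37.8%. Beside the receptor-gene percentile of its own array, M2 lies below it (6.87 beside 7.43) and M1 level with it (7.08 beside 7.07). The share of M2 is thus bounded by the background, and that of M1 lies at its edge. M3 lies above its own percentile (7.92 beside 4.95). Probe set 1448383_at gave the same picture, with 8.0, 8.04 and 7.88 in the Fz8-null arrays and 6.62, 6.42 and 7.85 in the double-null arrays. Its M3 value was only 0.03 below the lowest Fz8-null value. The dimmest probe set, 1416572_at, read 5.80, 6.24 and 5.63 in Fz8-null and 4.64, 4.96 and 5.81 in double-null kidneys, so that M3 lay within the Fz8-null range. On both of these probe sets M1 and M2 lie below the percentile of their own arrays. The 3 probe sets gave differences of -0.99, -1.01 (SE 0.37) and -0.75 (SE 0.33). With M3 as the only double-null array the Mmp14 difference was -0.355, and without M3 it was -1.30.

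Adamts18 differed least, and its probe sets did not point one way. Probe set 1437574_at read 8.16, 8.41 and 8.47 in C1, C2 and C3 and 7.93, 8.32 and 7.83 in M1, M2 and M3. M2 lay above C1, so the groups overlap, and 20.8% of all genes had a difference as low as that of Adamts18. Probe set 1444253_at read 4.83, 5.80 and 6.06 in Fz8-null and 6.32, 6.67 and 4.98 in double-null kidneys, a difference of 0.43 (SE 0.51) in the other direction. Probe set 1446247_at read 5.43, 5.21 and 5.58 in Fz8-null and 5.32, 5.77 and 4.75 in double-null kidneys, with a difference of -0.13 (SE 0.27). These dimmer probe sets have group means between 5.28 and 5.99, close to the 95th percentile of the receptor genes. The mean of all 3 Adamts18 probe sets gave -0.00774. For the brightest probe set the 95% interval of the difference ran from -0.75 to 0.11 in the fit over all probe sets, given as a description of its width.

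**Figure D2:**
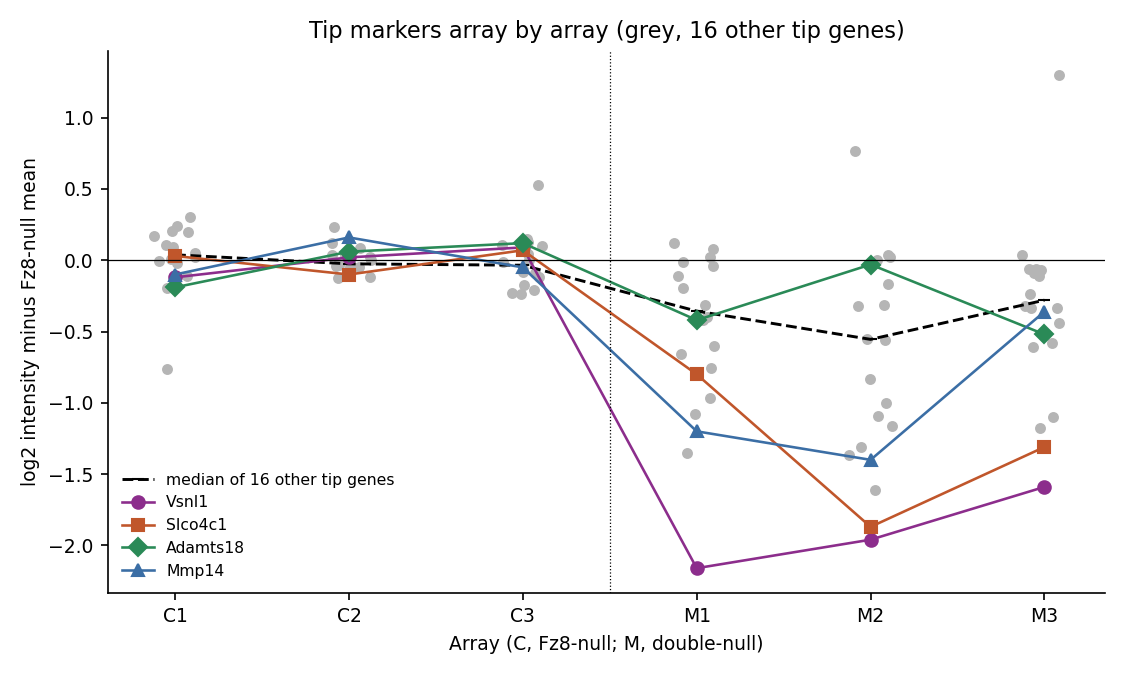
log2 intensity of the brightest probe set of each marker minus its Fz8-null mean (vertical axis) on each array (horizontal axis); grey dots are the 16 other tip genes measured and the dashed line is their median, and lines only join points of a gene. On M1 Vsnl1 stands at -2.16, in M2 Slco4c1 at -1.87, and in M3 Mmp14 returns to -0.36.

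The double-null arrays differed from each other in signs of RNA and array quality, and these moved with some marker values. The Gapdh control transcript, read at both ends, was higher at its 3' end by 1.01, 0.80 and 0.79 in C1, C2 and C3 and by 1.15, 1.04 and 0.88 in M1, M2 and M3. For the Actb control the values were 1.00, 0.74 and 0.75 in the Fz8-null arrays and 1.30, 1.08 and 0.57 in the double-null arrays. M1 and M2 thus exceeded every Fz8-null array on both controls, and M3 did not. The median of the receptor genes also was highest in M1 and M2, at 3.57 and 3.69, against 2.79 to 3.13 in the Fz8-null arrays and 3.09 in M3. In M3, whose control values were within or below the Fz8-null range, Vsnl1 stood at -1.59, Slco4c1 at -1.31, Adamts18 at -0.52 and Mmp14 at -0.36. M3 stood apart in other ways. Relative to the Fz8-null mean, its medians for the lists of liver and erythroid genes given below were 4.07 and 1.48. These medians were 3.91 and 1.36 in M2 and 0.54 and -0.52 in M1. The array weights of limma were lowest for M3, at 0.211, and highest for M1, at 3.93. The part of these quality measures in the lower values of M1 and M2 was not tested.

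**Figure D3:**
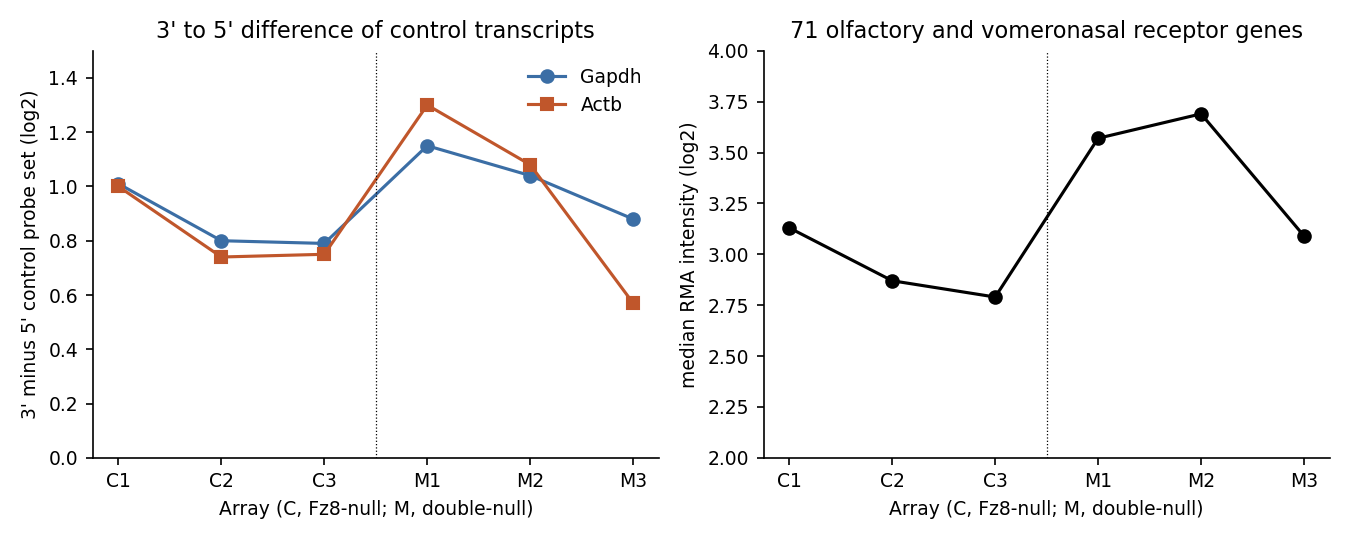
Left, log2 difference between the 3' and 5' control probe sets of Gapdh and Actb on each array; right, median log2 intensity of 71 olfactory and vomeronasal receptor genes (axis from 2 to 4). M1 and M2 exceed every Fz8-null array in both panels, whereas M3 lies within or below their range.

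The other tip genes lay lower too, by less than Vsnl1 and Slco4c1. This list, which leaves out the 4 markers, had 18 genes, of which 16 were measured, all with a mean above the 95th percentile of the receptor genes. Of these, 14 were lower and 2 higher in the double-null mean, where 58.1% of all genes were lower, and for 10 the groups did not overlap, with double-null lower, which was so for 12.2% of all genes. The median difference was -0.33, beside -0.061 over all genes and -0.15 over the 11174 of them that averaged 6 or more. Over all genes 5 passed an adjusted p of 0.05 in limma, which is 0.0275%, and 2780 or 15.3% had an unadjusted p under 0.05. No gene of the tip list passed, with 7 of 16 at an unadjusted p under 0.05 and 0 passing by ordinary least squares. Without M3 the list count was 5 of 16, all lower, in a fit where 3292 or 18.1% of all genes passed, 10.7% lower and 7.4% higher. Sox8, a transcription factor gene of the tip, had the lowest value, and the list ran from -1.21 to 0.68.

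Etv5 and Gfra1 had the smallest p in that list. Etv5 read 10.36, 10.57 and 10.66 in C1, C2 and C3 and 9.87, 9.53 and 9.95 in M1, M2 and M3, a difference of -0.74 (SE 0.16, limma adjusted p = 0.314). Gfra1 read 10.01, 9.99 and 9.87 against 9.20, 8.65 and 9.35, a difference of -0.89 (SE 0.20, limma adjusted p = 0.314). Neither pair of groups overlaps, and in both genes M2 was lowest and M3 highest among the double-null arrays. Relative to the Fz8-null mean, M1 had a list median of -0.36, M2 of -0.56 and M3 of -0.28.

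Genes of the whole ureteric epithelium and its trunk were split in direction. Of 20 measured, 10 were higher and 10 lower, with a median of 0.01. On the lower side 6 of the 20 did not overlap, beside 12.2% of all genes. None passed in limma (3 of 20 at an unadjusted p under 0.05, 0 by ordinary least squares), and 2 passed on the lower side without M3, both shares being near those over all genes. Elf3, an epithelial ETS factor gene, stood at -0.69 (SE 0.23, limma adjusted p = 0.314) and Gata3, which acts in the nephric duct from early on, at -0.38 (SE 0.14, limma adjusted p = 0.315). The list's summed linear intensity ran from 15000 to 15600 in Fz8-null and from 12400 to 15800 in double-null kidneys, whereas that of the 16 tip genes ran from 13800 to 14300 and from 10400 to 11700. The summed level of the tip genes did not overlap between the groups and that of the epithelial list did.

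Over the 6 arrays the profile of Adamts18 lay furthest from those of the other markers. Likeness was measured as the root mean square of the difference between log2 values, each gene centred on its own mean. The difference between the groups is part of each such distance. A marker with a small difference thus lies far from one with a large difference, and the distances restate the differences in part. Between pairs of markers this ran from 0.45 for Slco4c1 and Mmp14 to 0.83 for Vsnl1 and Adamts18. Among the genes nearest to Vsnl1, Slco4c1 ranked 64, Mmp14 74 and Adamts18 4145. The ranks depend on the gene they start from. Nearest to Slco4c1, Mmp14 ranked 302 and Vsnl1 667, and nearest to Mmp14, Slco4c1 ranked 4487 and Vsnl1 6433. Among all 18193 genes, Ret was the nearest to Slco4c1, at 0.13. Ret read 9.25, 9.32 and 9.51 in C1, C2 and C3 and 8.76, 7.75 and 8.26 in M1, M2 and M3, so that it shared with Slco4c1 the lowest value in M2 and the highest double-null value in M1. Psd2, an exchange factor gene for ARF6, followed at 0.20 and Adgrg2, an adhesion receptor gene, at 0.25.

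Mmp14 lay nearest to Cecr2, a chromatin remodelling gene, at 0.04, to Myorg at 0.06 and to Cited1, a regulator gene of uncommitted nephron progenitors, at 0.07. Cited1 read 9.26, 9.41 and 9.39 in C1, C2 and C3 and 8.05, 7.94 and 9.03 in M1, M2 and M3, with M3 near the Fz8-null level as in Mmp14. The nearest of the other tip genes to Mmp14 was Ros1, a receptor tyrosine kinase gene, at 0.18, which ranked 140 among all genes.

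Vsnl1 lay nearest to Ppme1, a phosphatase methylesterase gene, at 0.09, to Ntrk3, a neurotrophin receptor gene, at 0.17 and to Tmem59l at 0.24. Ppme1 read 7.15, 7.51 and 7.42 in C1, C2 and C3 and 5.32, 5.55 and 5.83 in M1, M2 and M3, with M1 lowest as in Vsnl1. Ppme1 and Ntrk3 are on chromosome 7, as is Fzd4, whereas Vsnl1 is on chromosome 12. None of the 4 markers shares a chromosome with Fzd4 or with Fzd8, which is on chromosome 18. Slco4c1 is on chromosome 1, Adamts18 on 8 and Mmp14 on 14. The nearest of the other tip genes to Vsnl1 was Sox8, at 0.50 and rank 68.

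Adamts18 lay nearest to Stac at 0.05, to Neu3, a sialidase gene, at 0.06 and to the Wnt ligand gene Wnt2 at 0.06, all of small range. With 6 arrays and 18193 genes close profiles arise readily, and these distances are given as a description.

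**Figure D4:**
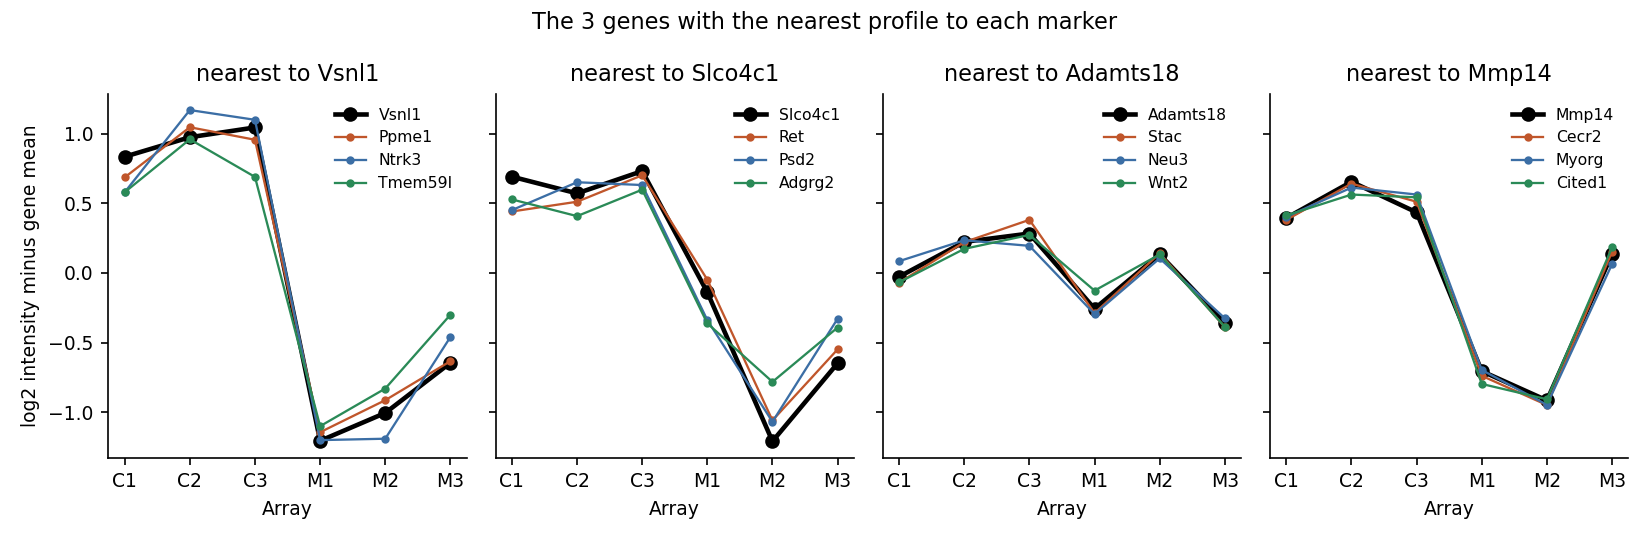
log2 intensity minus the gene's own mean (vertical axis) on the 6 arrays (horizontal axis; C, Fz8-null; M, double-null) for each marker in black and its 3 nearest genes in colour; lines only join points of a gene. Slco4c1 and Ret have their lowest values in M2, and Mmp14 and Cited1 return toward the Fz8-null level in M3.

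Counts of relatives at an unadjusted p under 0.05 or passing without M3 are to be read against the 15.3% and 18.1% of all genes. In the neuronal calcium sensor family, 12 genes besides Vsnl1 were measured, 5 higher and 7 lower, with a median of -0.09 and a range from -0.53 to 0.49. None passed in limma (2 at an unadjusted p under 0.05, 0 by ordinary least squares), and 1 passed in each direction without M3. Kcnip4, which encodes a subunit of voltage-gated potassium channels, stood at 0.49 and Rcvrn, the photoreceptor gene recoverin, at 0.44 (limma adjusted p = 0.314 and 0.325). Hpcal1, Ncald and Ncs1, which had Fz8-null means of 9.32, 8.03 and 9.03, stood at -0.17, 0.02 and -0.36, and these 3 were chosen after their values were seen, for their high signal. For 8 of the 12 the mean was below the 95th percentile of the receptor genes.

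Among 16 other organic anion transporter genes, 10 were higher and 6 lower, with a median of 0.17 and a range from -0.50 to 1.54. None passed in limma (6 at an unadjusted p under 0.05, 0 by ordinary least squares), while 6 passed on the higher and 2 on the lower side without M3. Slco1a1 and Slco1a6, transporter genes of the group found in liver and kidney, stood at 1.38 and 0.81 (limma adjusted p = 0.314 for each), from Fz8-null means of 2.95 and 3.90. In all, 12 of the 16 lay below the 95th percentile of the receptor genes. In the same list Slco4a1, of the same subfamily as Slco4c1, stood at -0.25 (limma adjusted p = 0.515), and was named after its value was seen.

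Of 19 other Adamts and Adamts-like genes measured, 14 were lower and 5 higher, with a median of -0.11 and a range from -0.59 to 1.27. None passed in limma (2 at an unadjusted p under 0.05, 0 by ordinary least squares), and 2 passed on the lower and 1 on the higher side without M3. Adamts12 read 8.74, 8.58 and 8.76 in C1, C2 and C3 and 8.21, 7.99 and 8.41 in M1, M2 and M3, a difference of -0.49 (SE 0.15, limma adjusted p = 0.314). Adamts20 stood at -0.28 (limma adjusted p = 0.323). Both were apart between the groups, which the brightest Adamts18 probe set was not. They were the only 2 of the 19 that were lower without overlap, a share near the 12.2% over all genes.

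The genes that work with Mmp14 lay on both sides of 0. Of 19 other metalloproteinases, inhibitors and partners measured, 9 were higher and 10 lower, with a median of -0.08 and a range from -0.44 to 0.61. None passed in limma (1 at an unadjusted p under 0.05, 0 by ordinary least squares), and 1 passed on the lower side without M3. Timp4, a metalloproteinase inhibitor gene, stood at 0.30 (SE 0.12, limma adjusted p = 0.319) and Furin, which encodes the convertase that activates Mmp14, at -0.29 (SE 0.13, limma adjusted p = 0.331). Mmp2, whose proenzyme Mmp14 activates, stood at 0.18 and Timp2, the inhibitor that bridges them, at -0.20 (limma adjusted p = 0.670 and 0.596). Mmp2 and Timp2 were named after their values were seen, for that role.

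**Figure D5:**
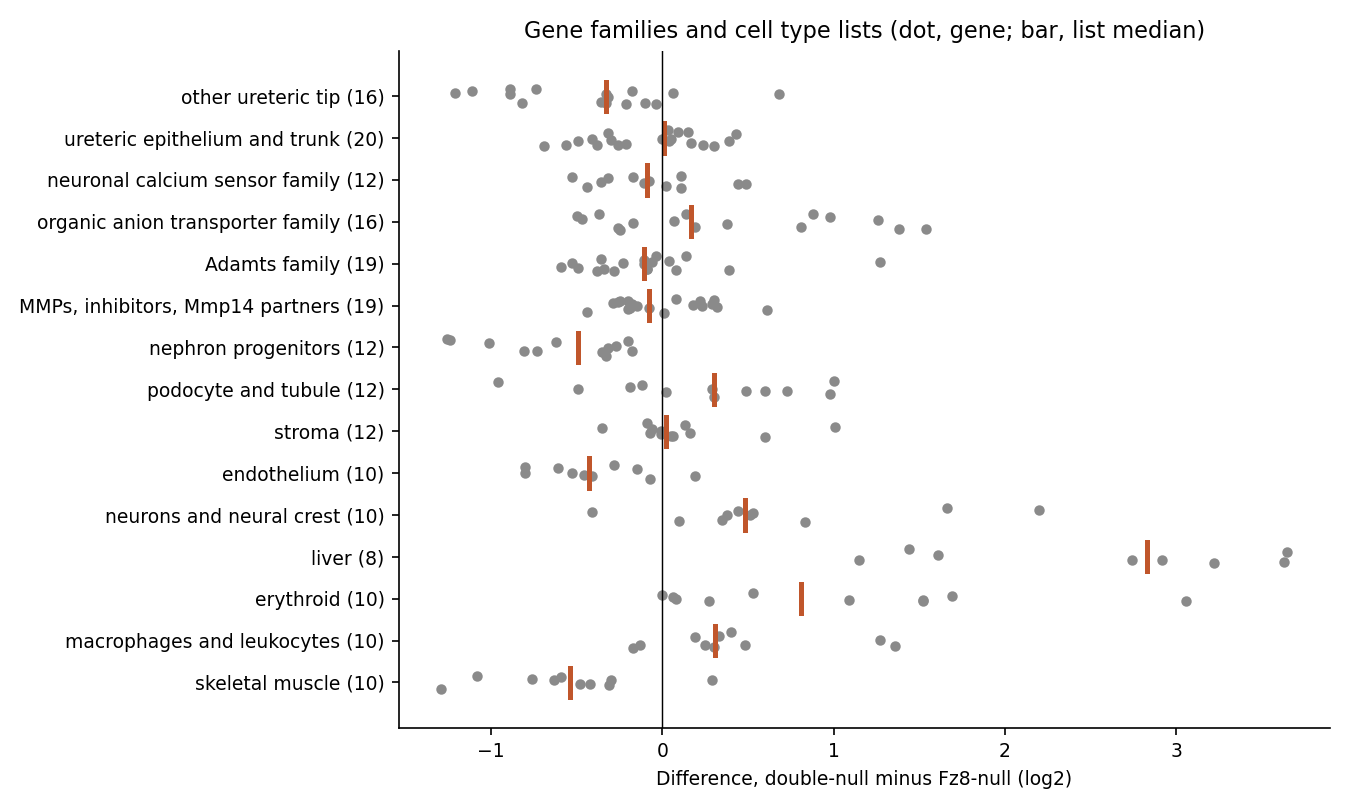
Difference in log2 intensity, double-null minus Fz8-null (horizontal axis), of each measured gene (dot) in the lists of other tip genes, relatives of the markers and cell types (vertical axis, number measured in parentheses), with the list median as a bar. The tip and nephron progenitor medians stand at -0.33 and -0.49, the families of the markers between -0.11 and 0.17, and the liver median at 2.83.

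Lists of other cell types, of which liver and skeletal muscle are not of the kidney, differed in median between the genotypes to varying degrees. Their part in the marker differences was not tested. All 12 nephron progenitor genes were lower (median -0.49; 8 without overlap), where 58.1% of all genes were lower and 12.2% were lower without overlap, and their summed linear intensity was 10500 to 11400 in Fz8-null and 7520 to 8500 in double-null kidneys. Endothelium can make Mmp14, and its genes were lower in 9 of 10 cases, with medians of -0.43 in M1, -0.92 in M2 and -0.01 in M3. Their summed intensity ran from 3410 to 4000 and from 2510 to 3570, so the groups overlap. Stroma, which also makes Mmp14, had 6 of 12 genes higher and 6 lower, with sums of 20100 to 20600 and 18900 to 23600.

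Neurons express Vsnl1. Of 10 neuronal genes measured, 9 were higher in double-null kidneys (median 0.48), and their sums ran from 794 to 824 and from 760 to 1500. Podocyte and tubule genes had 8 of 12 higher (median 0.30), with sums of 1750 to 1880 and 1330 to 2300. Liver genes were higher in all 8 cases (median 2.83), with sums of 458 to 794 and 1110 to 10400, and the medians relative to the Fz8-null arrays were 0.54 for M1, 3.91 for M2 and 4.07 for M3. Erythroid genes were higher in 9 of 10 cases (median 0.81; sums of 12500 to 14100 and 10100 to 25500), macrophage and leukocyte genes in 8 of 10 (median 0.31; 1440 to 1720 and 1670 to 3890), and skeletal muscle genes lower in 9 of 10 (median -0.54; 1190 to 2150 and 738 to 1390). No gene of these 9 cell type lists passed in limma over all genes, and 0 passed by ordinary least squares. At an unadjusted p under 0.05 in limma there were 31 of their 94 genes, beside 15.3% of all genes. Without M3 23 of them passed, 14 lower and 9 higher, where 18.1% of all genes did. Without M1 9 passed, where 0.214% of all genes did. All of those passing without M1 were higher, 5 of them erythroid and 4 liver genes. Values on this scale are never 0, and between 0 and 6 genes of each list lay below the 95th percentile of the receptor genes.

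The upstream sequences of the 3 markers whose groups were apart are shown as a description. The part of these sequences in the lower marker values was not tested. RefSeq start sites were available for all 4 markers. The last 250 bases before each start were searched on both strands for CTTTGAA and CTTTGAT, which TCF/LEF factors of the canonical Wnt pathway bind, and for GGAAGT, an ETS core. A GC box, GGGCGG, was added after the sequences were seen. Capitals mark every match, and only bases outside the annotated gene are printed, with 30 bases around the match at the inner Vsnl1 start.

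Vsnl1, outer start, GRCm38.p6 chr12:11436579-11436828, minus strand: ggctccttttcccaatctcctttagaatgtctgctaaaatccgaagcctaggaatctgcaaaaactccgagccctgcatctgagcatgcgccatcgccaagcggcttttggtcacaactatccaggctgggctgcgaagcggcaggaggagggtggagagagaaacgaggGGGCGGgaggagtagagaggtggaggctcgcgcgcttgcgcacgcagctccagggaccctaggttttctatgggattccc
Vsnl1, inner start, GRCm38.p6 chr12:11435696-11435725, minus strand: gttttacagcatCTTTGATtttgaacagag
Slco4c1, GRCm38.p6 chr1:96872194-96872421, minus strand: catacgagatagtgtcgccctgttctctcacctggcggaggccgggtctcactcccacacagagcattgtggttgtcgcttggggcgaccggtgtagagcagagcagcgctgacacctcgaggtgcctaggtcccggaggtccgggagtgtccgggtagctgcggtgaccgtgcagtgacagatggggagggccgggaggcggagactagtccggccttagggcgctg
Mmp14, GRCm38.p6 chr14:54431348-54431597, plus strand: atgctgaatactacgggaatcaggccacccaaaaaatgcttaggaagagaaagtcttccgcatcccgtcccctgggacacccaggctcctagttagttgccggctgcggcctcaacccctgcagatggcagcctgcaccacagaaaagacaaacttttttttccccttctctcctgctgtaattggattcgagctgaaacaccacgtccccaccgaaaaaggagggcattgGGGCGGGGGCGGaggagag

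The inner Vsnl1 start has a CTTTGAT match, 62 to 56 bases upstream, and the windows of the outer Vsnl1 start, Slco4c1, Adamts18 and Mmp14 have none of either TCF/LEF form. Over all 27025 genes with a window, 8.63% have at least 1 of the 2 TCF/LEF forms, and 22.2% have the ETS core. No marker window has GGAAGT. Of the 13 other tip genes with a window, 2 have a TCF/LEF form and 2 have the ETS core. The GC box was found once for the outer Vsnl1 start, once for Adamts18, 2 times in tandem for Mmp14 and once for Slco4c1, 10 to 5 bases before its start and outside the stretch printed. It occurs in 35.4% of all genes with a window. Such matches are a description of these letters and say nothing about binding.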

How the data were processed

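RNA of 6 whole kidney samples was hybridised to Affymetrix MOE430.2 arrays. The authors deposited 1 log2 intensity per probe set and array, normalized with RMA per the submitters' processing notes (version not given in the sources used here), and these were analysed without further scaling. Of 45101 probe sets, 64 controls were set aside. Of the other 45037, the platform annotation gave 1 gene for 34945, several for 932 and none for 9160. Genotypes were compared with limma 3.58.1 (R 4.3.3, lmFit and eBayes, two-sided, Benjamini-Hochberg over 18193 genes, threshold 0.05), after the code was tested on simulated data. SEs of other probe sets and the 95% interval come from the same fit over 45037 probe sets. Arrays have no read depth, so their number limits the precision.

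The members, lists and alternatives were chosen with earlier results of these data known. Named genes were the members, Fzd4 and Fzd8, the list members past the threshold or else the 2 of smallest p (given for the tip, epithelial and family lists), the 3 nearest profiles of each member, and those said to be named after their values were seen. The lists held other tip genes, ureteric epithelium, 4 families and 9 other cell types. List symbols were matched through the RefSeq table of GRCm38.p6. Alternatives were other scalings, array weights, the mean of probe sets, a filter at a mean of 6, other variance settings, the replicate block and leaving out arrays. Replicate numbers were not used to pair the samples, except in the replicate block.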

Additional observations from a re-analysis of the deposited data

How the results depend on the processing

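All 4 markers kept their direction under every alternative run. With the mean of all its probe sets, however, Adamts18 was so close to 0 that its sign carries no weight. The value moved by more than the spread between replicates with array weights for Vsnl1 (-2.14) and Slco4c1 (-0.909), with the mean of all probe sets for Slco4c1 (-0.825) and Adamts18 (-0.00774), and with M3 as the only double-null array, chosen after the data were seen, for Vsnl1 (-1.59) and Mmp14 (-0.355). That last setting assumes that the lone array varies like the other group. The median of the other tip genes stayed between -0.397 and -0.235. Genes passing over all genes numbered 5 as reported, 1 with the mean of all probe sets, 1 by ordinary least squares, 7576 with array weights, 55 with M3 as the only double-null array, and from 2 (without C3) to 3292 (without M3) when single arrays were left out. Other tip genes passing numbered 0 as reported and from 0 to 5 when single arrays were left out. With array weights they numbered 10, in a fit where 41.6% of all genes passed, 26.1% on the lower side. With the replicate block 3 genes passed. Arrays that share a number deviated from their group means with correlations of 0.17, -0.14 and 0.09. For arrays with unlike numbers these ran from -0.23 to 0.25. With so few arrays such correlations cannot decide whether samples were paired, and the labels give only a number. Array weights gave M1 3.93 and M3 0.211.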
